A study of Mus musculus with 48 samples.

Results

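Serpinb1a and Serpine2, 2 of the 22354 genes of a mouse liver count table, encode serpins. Both were picked by name, from earlier results of the same counts, for the size of their mean difference between the genotypes over 6 collection times. That difference is therefore given below as a description with its standard error (SE) and without a test, and tests are kept to what did not choose the genes: the course over time, the rhythm, and the other serpins. The livers came from C57BL/6 mice aged 4 to 6 months. The KO group (labelled Bmal1 knockout) carried floxed Bmal1 alleles and aP2-Cre, a recombinase under a promoter used to target adipocytes, and the WT group were littermate controls. All mice of both groups had spent 36 h in constant darkness and were killed in darkness at 0, 4, 8, 12, 16 or 20 h of the series. The 25 WT and 23 KO mice made 12 groups of 4, apart from 16 h, for which 5 WT and 3 KO are labelled and the design text has 4 of each. The question is what removal of a clock gene aimed at fat goes along with in liver RNA over the day.

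Most serpins, though not all, are protease inhibitors. These work once: a protease cuts an exposed loop of the serpin, the serpin refolds, and both stay locked in a dead complex. Clade B serpins lack a classical secretion signal and act mostly inside cells. Serpinb1a is a mouse counterpart of human SERPINB1, the monocyte and neutrophil elastase inhibitor, which protects cells from the granule proteases neutrophil elastase, proteinase 3 and cathepsin G. Hepatocytes also make it, and it has been described as a liver-derived factor that acts on pancreatic beta cells. Clade E serpins are secreted regulators of clotting and of clot lysis. Serpine2, also called protease nexin 1, blocks thrombin, urokinase, tissue plasminogen activator and plasmin at cell surfaces, with heparan sulfate as cofactor.

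Levels are given as CPM, read counts brought to one library size by the trimmed mean of M-values (TMM). Library totals without albumin lay between 12841969 and 13009797 counts (median 12929297), and 13646 genes passed the filter on low counts, both members among them. Apart from DESeq2 and the correlations, adjusted p values come from edgeR's quasi-likelihood test with Benjamini-Hochberg adjustment over all genes that passed the filter. These were the 13646 genes, or the genes left by another filter or set of libraries where one is named, 0.05 being the threshold for a call, and log2 differences are KO minus WT. Arntl, the symbol of Bmal1, averaged 18.5 CPM in WT and 18.4 in KO liver (log2 difference 0.30 ± 0.16, adjusted p = 0.347). A count over the whole gene does not show whether the floxed part was read, and a level in liver is no check of a deletion aimed at fat. The labels give the tissue as liver and the cell type as adipocyte. The defining adipocyte genes Adipoq, Plin1 and Lep each had a median of 0 counts per library, while the hepatocyte gene Ttr had at least 35342. Xist had 3029 to 13969 counts in every library and 3 Y-linked genes together at most 1, as in females, whereas the design text says male. WT_0h replicate 3 held adrenal transcripts, KO_0h replicate 2 held pancreatic ones, and KO_16h replicate 2 was known from earlier results to stand apart, so each result was also computed without these 3 libraries. In whole liver RNA, fewer cells of a type and less RNA per cell cannot be told apart.

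Serpinb1a (ENSMUSG00000044734, mm9 chromosome 13, 32933961 to 32943054) was higher in KO liver at each of the 6 times. It averaged 34.7 CPM over the WT groups and 118 CPM over the KO groups, a log2 difference of 1.73 ± 0.29. Both genotypes spread widely, from 5.09 to 88.4 CPM in WT (median 27.3) and from 20.3 to 419.7 in KO (median 101). At 0 h, Serpinb1a read 27.3, 33.3, 16.8 and 82.9 CPM in the WT livers (40.1 ± 29.3, SD, n = 4) and 139, 64.1, 232 and 126 CPM in the KO livers (140.4 ± 69.3, SD, n = 4). At 4 h, Serpinb1a read 77.5, 42.9, 56.8 and 31.1 CPM in the WT livers (52.1 ± 19.9, SD, n = 4) and 182, 172, 164 and 129.7 CPM in the KO livers (162 ± 22.9, SD, n = 4). Only at 4 h did every KO liver lie above every WT liver, which was so for 3.81% of the genes tested, and at 0 h a single WT mouse reached into the KO range. At 8 h, Serpinb1a read 28.4, 61.2, 26.9 and 33.8 CPM in the WT livers (37.6 ± 16.0, SD, n = 4) and 52.2, 263, 148 and 42.3 CPM in the KO livers (126 ± 103, SD, n = 4). At 12 h, Serpinb1a read 16.1, 12.9, 22.7 and 26.0 CPM in the WT livers (19.4 ± 5.94, SD, n = 4) and 28.9, 89.8, 160.0 and 20.3 CPM in the KO livers (74.7 ± 64.7, SD, n = 4). At both times 2 KO livers were far above the WT range and the other 2 lay within or close to it. At 16 h, Serpinb1a read 21.6, 17.2, 13.6, 5.09 and 43.1 CPM in the WT livers (20.1 ± 14.2, SD, n = 5) and 31.8, 25.1 and 419.7 CPM in the KO livers (159 ± 226, SD, n = 3). At 20 h, Serpinb1a read 88.4, 21.2, 33.9 and 12.2 CPM in the WT livers (38.9 ± 34.1, SD, n = 4) and 22.3, 101, 27.6 and 38.9 CPM in the KO livers (47.5 ± 36.4, SD, n = 4). At 16 h a single KO liver stood far above all others and the other 2 lay within the WT range, and at 20 h the genotypes overlapped over most of their range.

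**Figure D1:**
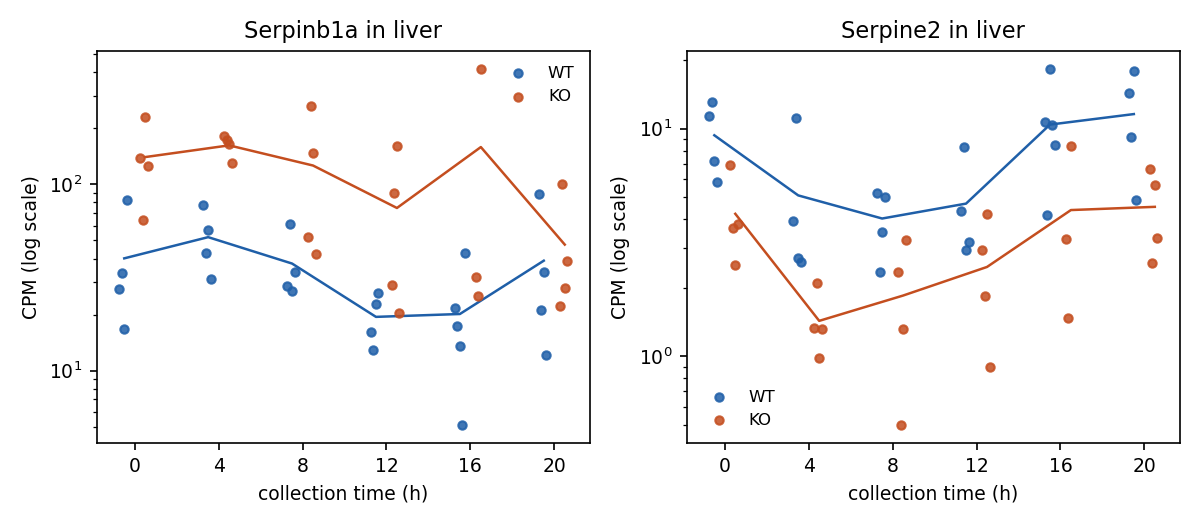
Serpinb1a (left) and Serpine2 (right) in CPM on a log axis against collection time in hours. Each point is a mouse liver, blue for WT and orange for KO, shifted sideways for visibility, and lines join the group means. Serpinb1a points of KO lie above those of WT without overlap at 4 h, and Serpine2 points of KO lie below those of WT without overlap at the same time.

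The log2 differences of Serpinb1a by time were 1.81 ± 0.72 at 0 h, 1.64 ± 0.72 at 4 h, 1.75 ± 0.72 at 8 h and 1.94 ± 0.73 at 12 h. At 16 h the difference was 2.98 ± 0.72 and at 20 h 0.29 ± 0.70, so the highest and the lowest fell on neighbouring times. Some of these rested on single mice. Without KO_16h replicate 3, the liver at 419.7 CPM, the difference at 16 h was 0.50 and the mean over times 1.32. The 8 h value was 1.10 without KO_8h replicate 2, and the 12 h value 1.25 without KO_12h replicate 3. At 20 h it ran from −0.39 without KO_20h replicate 2 to 1.08 without WT_20h replicate 1. The genotype by time interaction did not pass (adjusted p = 0.953, unadjusted p = 0.225), and 1 gene in the table did (0.00733% of those tested).

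**Figure D2:**
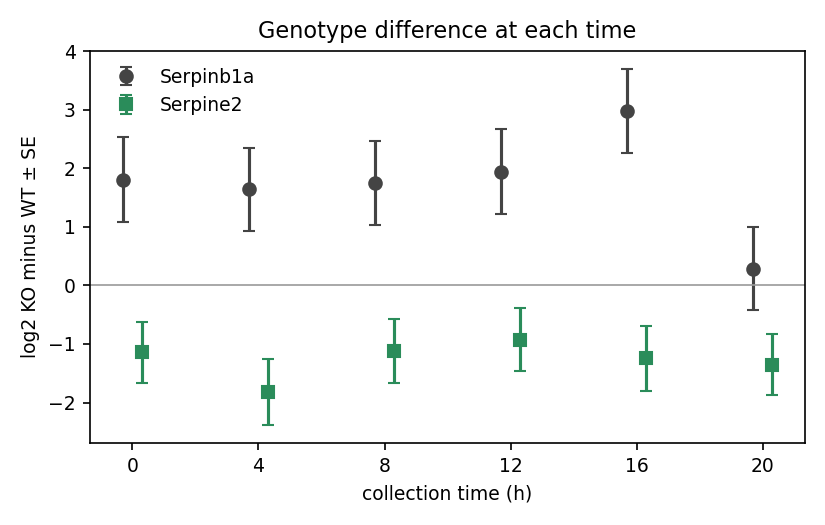
Log2 difference KO minus WT at each collection time in hours, with bars of 1 SE, for Serpinb1a (dark circles) and Serpine2 (green squares). Serpinb1a lies above 0 at every time, from 0.29 at 20 h to 2.98 at 16 h, and Serpine2 lies below 0 at every time, from −0.93 at 12 h to −1.82 at 4 h.

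Ordered by mean, the 12 groups of Serpinb1a ran from WT at 12 h (19.4 CPM) and WT at 16 h (20.1) up to KO at 16 h (159) and KO at 4 h (162). The 5 highest groups were all KO. KO at 20 h (47.5 CPM) lay below WT at 4 h (52.1). Neighbours in this order differed by less than the larger of their SDs, except for the step from WT at 16 h to WT at 8 h (37.6 CPM). The spread between mice of the same group was itself large. Its SD on the log2 scale was 0.87 in WT and 1.22 in KO, larger than in 95.9% and 98.9% of 11986 genes averaging 1 CPM or more.

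The time course of Serpinb1a was tested because it played no part in choosing the gene. Averaged over genotypes, its level was 107 CPM at 4 h and 43.2 CPM at 20 h. The time effect did not pass (adjusted p = 0.217), nor did a 24 h rhythm in WT (adjusted p = 0.194, amplitude 0.74 ± 0.23 on the log2 scale, highest at 3.12 h) or in KO (adjusted p = 0.593, amplitude 0.88 ± 0.36, highest at 4.06 h). Amplitudes are heights of the peak over the mean, and peak times count from the first collection. Of all genes tested, 28.7% passed the time effect, 16.3% the WT rhythm and 17.0% the KO rhythm. Both negative results on time depended on the high liver at 16 h: without KO_16h replicate 3, the adjusted p was 0.0115 for the time effect and 0.00749 for the KO rhythm. The WT rhythm did not pass under any alternative run (adjusted p 0.0774 to 0.310), and the difference of rhythm between genotypes did not pass either (adjusted p = 1.00, unadjusted p = 0.506).

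The near copies Serpinb1b and Serpinb1c, both clade B, could in principle share its reads. Serpinb1b had 50 counts and Serpinb1c 36 counts summed over all 48 libraries, against 45287 for Serpinb1a, and neither passed the count filter. In the GENCODE M21 transcripts, 64 of 2053 stretches of 50 bases in Serpinb1a (3.12%) also occur in Serpinb1b, Serpinb1c or the pseudogene Serpinb1-ps1, and 0 of 2003 stretches of 100 bases do. Serpine2 shares 0 of 2274 stretches of 50 bases with any other gene. No other gene of the table overlaps either member in mm9.

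Serpine2 (ENSMUSG00000026249, mm9 chromosome 1, 79790772 to 79855271) was lower in KO liver at each of the 6 times. It averaged 7.52 CPM over the WT groups and 3.15 CPM over the KO groups, a log2 difference of −1.27 ± 0.22. These are low counts: the 48 libraries held between 6 and 255 reads of Serpine2, with a median of 50. The 300 bases around the RefSeq start site are shown for Serpine2, the only member matched among the RefSeq promoters. The letters of clock-related motifs, the AP-1 site, the GC box and the TATA box were searched there. The window lies at chr1:79858616-79858915 of GRCm38.p6, on the minus strand, from 250 bases before the start site to 50 after it. Capitals mark matches to the GC box GGGCGG.

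Serpine2 promoter: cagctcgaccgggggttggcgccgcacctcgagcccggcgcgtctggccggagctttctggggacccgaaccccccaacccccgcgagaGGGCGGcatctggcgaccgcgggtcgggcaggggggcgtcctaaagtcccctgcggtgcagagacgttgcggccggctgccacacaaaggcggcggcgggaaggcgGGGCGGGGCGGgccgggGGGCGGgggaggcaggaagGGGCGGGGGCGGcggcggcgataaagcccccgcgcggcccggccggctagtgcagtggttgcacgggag

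The window is 77.7% G and C, more than in 98% of 27025 RefSeq promoters of the same length (median 52.7%). On either strand it holds 6 matches to GGGCGG, of which 1 pair shares a base, and 35.9% of those promoters hold at least 1. It holds no match to the E-box CACGTG (found in 7.24% of promoters), to the D-box forms TTATGTAA (0.955%) and TTATGCAA (0.792%), or to the RORE core AGGTCA (16%). Nor does it hold the AP-1 site TGANTCA (7.93%) or the TATA box TATAAA (14.2%). No match says only that these letters are not in this window. Serpinb1a was not matched in the promoter table.

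At 0 h, Serpine2 read 11.3, 13.0, 7.17 and 5.83 CPM in the WT livers (9.34 ± 3.40, SD, n = 4) and 6.90, 3.65, 2.52 and 3.82 CPM in the KO livers (4.22 ± 1.87, SD, n = 4). At 4 h, Serpine2 read 3.91, 11.2, 2.69 and 2.58 CPM in the WT livers (5.09 ± 4.09, SD, n = 4) and 1.33, 2.09, 0.986 and 1.31 CPM in the KO livers (1.43 ± 0.469, SD, n = 4). At 4 h all KO livers were below all WT livers, as for 3.98% of the genes tested, and at 0 h the ranges met at a single KO mouse. At 8 h, Serpine2 read 5.21, 2.35, 3.52 and 5.02 CPM in the WT livers (4.03 ± 1.35, SD, n = 4) and 2.34, 0.498, 1.32 and 3.23 CPM in the KO livers (1.85 ± 1.19, SD, n = 4). At 12 h, Serpine2 read 4.34, 8.31, 2.92 and 3.16 CPM in the WT livers (4.68 ± 2.50, SD, n = 4) and 2.94, 1.83, 4.19 and 0.901 CPM in the KO livers (2.47 ± 1.42, SD, n = 4). At 8 and 12 h most livers of both genotypes were low and the ranges overlapped. At 16 h, Serpine2 read 10.7, 4.19, 18.3, 10.4 and 8.47 CPM in the WT livers (10.4 ± 5.14, SD, n = 5) and 3.27, 1.48 and 8.41 CPM in the KO livers (4.39 ± 3.60, SD, n = 3). At 20 h, Serpine2 read 14.4, 9.17, 17.9 and 4.87 CPM in the WT livers (11.6 ± 5.73, SD, n = 4) and 6.63, 2.55, 5.63 and 3.30 CPM in the KO livers (4.53 ± 1.92, SD, n = 4). WT livers reached their highest values at these late times, and the highest KO liver of the series was KO_16h replicate 3, the same mouse that was highest for Serpinb1a.

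By time, the log2 differences of Serpine2 were −1.14 ± 0.52 at 0 h, −1.82 ± 0.56 at 4 h and −1.11 ± 0.55 at 8 h. They were −0.93 ± 0.54 at 12 h, −1.25 ± 0.55 at 16 h and −1.35 ± 0.52 at 20 h. Single mice again moved some of these. Without WT_4h replicate 2, at 11.2 CPM, the 4 h value was −1.09. The 12 h value was −0.49 without WT_12h replicate 2, and the 16 h value was −2.12 without KO_16h replicate 3. The mean over times ran from −1.41 to −1.15 as each library was left out in turn. The interaction with time did not pass (adjusted p = 0.976, unadjusted p = 0.902).

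Serpine2 varied with collection time in both genotypes. Averaged over genotypes, its level was lowest at 8 h (2.94 CPM) and highest at 20 h (8.06 CPM), and the time effect passed (adjusted p = 0.00245). The 24 h rhythm passed in WT (adjusted p = 0.00804), with an amplitude of 0.83 ± 0.20 on the log2 scale, or 3.17-fold from trough to peak, and a peak at 19.8 ± 0.89 h. It also passed in KO (adjusted p = 0.0190), with an amplitude of 0.82 ± 0.23, or 3.11-fold, and a peak at 19.4 ± 1.07 h. The KO call rested in part on KO_20h replicate 1, without which its adjusted p was 0.0515. That liver also had the highest sum of neutrophil markers in KO (632 CPM, against a KO median of 10.2 CPM). The difference of rhythm between genotypes did not pass (adjusted p = 1.00, unadjusted p = 0.839). Amplitudes and peak times of the genotypes lay within 1 SE of each other. Markers of other liver cells also varied with time. Of 14 stellate cell and fibroblast markers 5 passed the time effect, beside 28.7% of all genes. The rhythm passed for 4 in WT, beside 16.3% of all genes, and for 2 in KO, beside 17.0%. Des, the muscle filament desmin, passed in WT (adjusted p = 0.0371, peak at 17.8 h) and in KO (adjusted p = 0.0162, peak at 17.9 h). Pdgfrb, a receptor of platelet-derived growth factor, passed in WT (adjusted p = 0.0342) and in KO (adjusted p = 0.0473), with a peak at 21.1 h in both. Of 10 endothelial markers 6 passed the time effect, 4 the WT rhythm and 8 the KO rhythm, beside the same shares of all genes. The part of these cells in the Serpine2 rhythm was not tested.

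In order of mean, the 3 lowest Serpine2 groups were KO at 4 h (1.43 CPM), 8 h (1.85) and 12 h (2.47), and the 3 highest were WT at 0 h (9.34), 16 h (10.4) and 20 h (11.6). KO at its peak of 20 h (4.53 CPM) was close to WT at its low of 8 h (4.03 CPM). Neighbours in the order lay within the larger of their SDs except at 2 steps, from KO at 12 h to WT at 8 h and from WT at 4 h (5.09 CPM) to WT at 0 h. The SD between mice of a group on the log2 scale was 0.72 in WT and 0.81 in KO. It was larger than in 90.9% and 94.7% of 11986 genes averaging 1 CPM or more. Those genes were not matched to the low counts of Serpine2, so the rank does not separate spread between mice from counting noise.

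Whether the members varied together from mouse to mouse was tested on log2 CPM after taking away each group's mean. In WT, Pearson's r was −0.04 and Spearman's rho −0.07 over 25 mice (permutation p = 0.878 and 0.761, adjusted over the 2 genotypes 0.878 and 0.898). In KO they were 0.10 and 0.04 over 23 mice (permutation p = 0.755 and 0.898, adjusted 0.878 and 0.898). Without the 2 KO mice farthest from the median of Serpinb1a, r was −0.29 in KO (permutation p = 0.339, adjusted 0.656). Over all 48 libraries r was −0.43, which includes the opposite genotype differences that chose the genes and is a description.

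**Figure D3:**
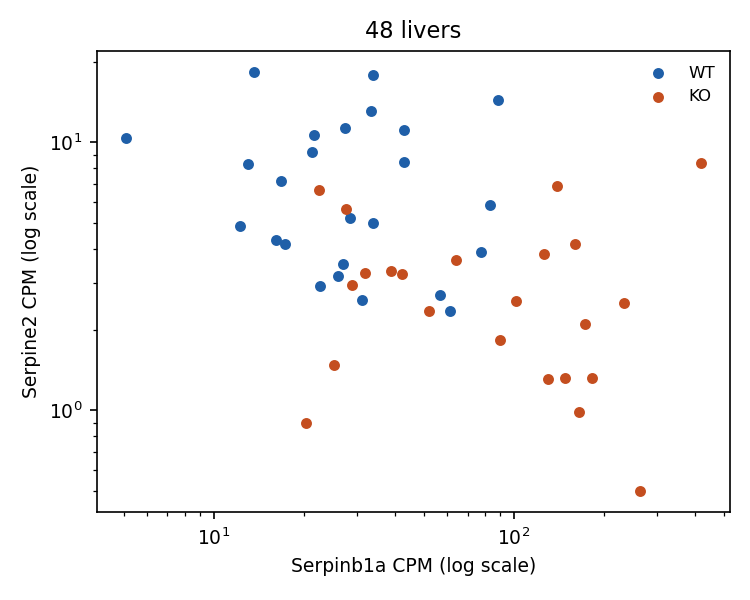
Serpine2 against Serpinb1a, both axes in CPM on log scales, with 1 point per liver (blue WT, orange KO, 48 in all). The KO points are shifted right and down with overlap, while within a genotype r after removal of group means is −0.04 in WT and 0.10 in KO.

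A list of other serpins, which does not hold every serpin gene of the table, was set beside the members. Of 62 further serpin genes listed, 46 were in the table and 29 passed the count filter. With edgeR's quasi-likelihood test 0 of the 29 were called, beside 1.40% of all genes called (0.623% higher and 0.777% lower in KO). At an unadjusted p under 0.05 there was 1 of the 29, Serpina12, beside 2336 of all 13646 genes, and DESeq2 called 1 of them, also Serpina12. The 29 split into 14 positive and 15 negative differences with a median of −0.0035 on the log2 scale, and the median over all genes tested was −0.0047.

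**Figure D4:**
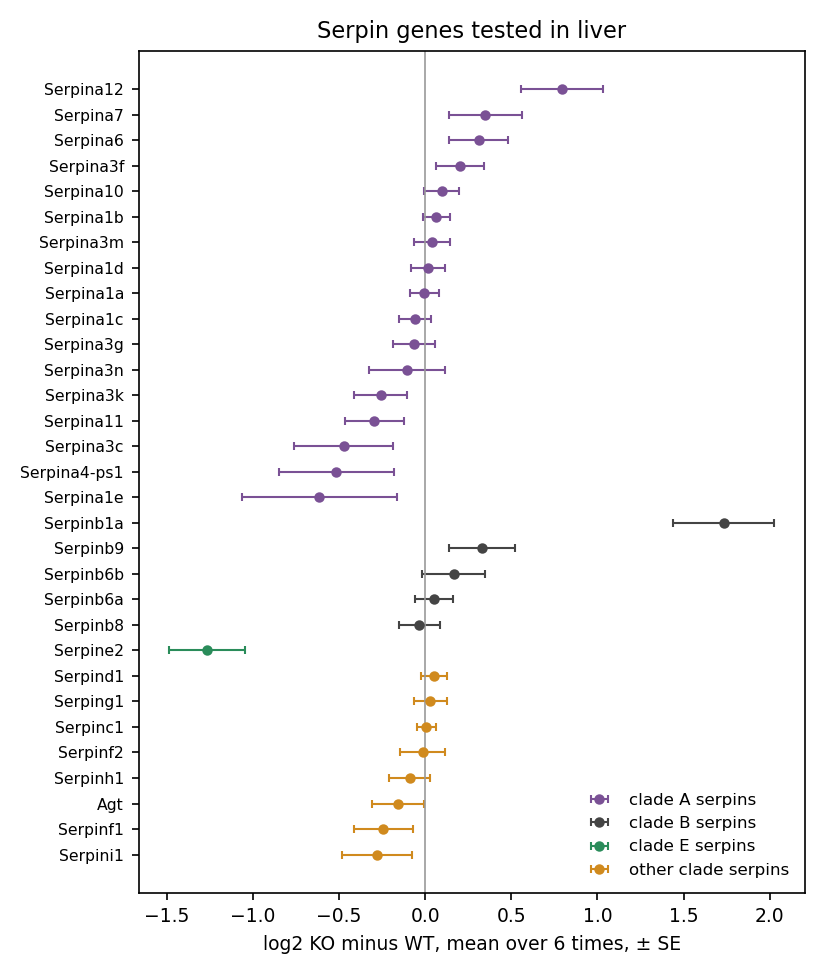
Log2 difference KO minus WT, mean over 6 times, with bars of 1 SE, for the 31 listed serpin genes tested, coloured by clade. Serpinb1a (1.73) lies furthest to the right of those plotted and Serpine2 (−1.27) furthest to the left. Both genes were chosen for the size of this difference, so their places at the ends are a description.

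Serpine3, also of clade E, had 8 counts in all libraries together and was not tested. Among the 4 other clade B serpins tested, none was called and the median was 0.11. They were Serpinb9, an inhibitor of granzyme B (0.33 ± 0.19, adjusted p = 0.372), Serpinb6b (0.17 ± 0.18), Serpinb6a (0.05 ± 0.11) and Serpinb8 (−0.03 ± 0.12). None of the 17 tested clade A serpins was called, with a median of −0.0035. The nearest was Serpina12, or vaspin, an adipokine, at 4.39 CPM in WT and 8.07 in KO (0.79 ± 0.24, adjusted p = 0.0805), which was called in DESeq2 (adjusted p = 0.0368), without both 16 h groups (0.0477), and without KO_20h replicate 1 or WT_0h replicate 4 (at the lowest 0.0305). Serpina6, the corticosteroid-binding globulin, read 0.31 ± 0.17 and Serpina11 −0.30 ± 0.17, and neither was called. None of the 8 genes of other clades was called (median −0.05). They include Serpinf1, or PEDF (−0.24 ± 0.17), the neural serpin gene Serpini1 (−0.28 ± 0.20) and the angiotensinogen gene Agt (−0.16 ± 0.15). By time, 9 of the 29 passed the time effect, beside 28.7% of all genes, 5 passed the rhythm in WT, beside 16.3%, and 6 in KO, beside 17.0%.

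Serpine2 acts on thrombin and the plasminogen activators, so the genes of that system were listed. None of the 20 tested was called, beside 1.40% of all genes, 8 were positive and 12 negative, and the median was −0.09. Urokinase, Plau, read 1.54 CPM in WT and 2.14 CPM in KO (0.49 ± 0.17, adjusted p = 0.140, or 0.0486 without KO_16h replicate 2), the lowest p of the list. Its receptor Plaur read −0.43 ± 0.22 (adjusted p = 0.303) and thrombomodulin, Thbd, −0.28 ± 0.14 (adjusted p = 0.315). By time, 7 of the 20 passed the time effect, beside 28.7% of all genes. The rhythm passed for 4 of the 20 in each genotype, beside 16.3% in WT and 17.0% in KO, and the interaction for 0, beside 0.00733%.

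The granule proteases that Serpinb1a blocks had few reads in most livers and more in some. Of 5 target proteases tested, 0 were called, beside 1.40% of all genes, with 1 positive and 4 negative fitted differences. Mean CPM was nonetheless higher in KO for Elane (0.680 in WT, 0.791 in KO) and Ctsg (0.229 in WT, 0.300 in KO). Neutrophil elastase, Elane, had a median of 1 count per library and was at 0 in 17 of 48. Cathepsin G, Ctsg, was at 0 in 33 libraries (adjusted p = 0.463), and proteinase 3, Prtn3, had a median of 2 counts (adjusted p = 0.527). Their highest counts in a library were 215 for Elane, 86 for Ctsg and 368 for Prtn3. The 6 genes of the list summed to a median of 5.81 CPM in WT and 5.55 CPM in KO, and to 46.6 CPM in WT_0h replicate 3 and 46.3 CPM in KO_20h replicate 1, the highest of each genotype. The mast cell protease gene Cma1 was at 0 in 33 libraries and was not tested. The caspases Casp1 and Casp4, which SERPINB1 is known to restrain, had log2 differences of 0.09 ± 0.18 and −0.07 ± 0.17.

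Neutrophils also make Serpinb1a, so their markers are set beside it. Of 12 tested, 0 were called, beside 1.40% of all genes. The fitted difference was negative for all 12 although the mean CPM of Mpo, Elane and Mmp9 was higher in KO. Ltf averaged 3.62 CPM in WT and 2.27 in KO (adjusted p = 0.287, and 0.0151 in DESeq2), Mpo 1.15 and 1.51 (adjusted p = 0.316) and Camp 2.06 and 1.47 (adjusted p = 0.326). Ly6g, a defining neutrophil gene, was at 0 in 43 libraries. The 13 markers summed to 3.44 to 506 CPM in WT (median 12.5) and 3.79 to 632 CPM in KO (median 10.2). Their highest sums were in WT_0h replicate 3 and KO_20h replicate 1. By time, 9 of the 12 passed the time effect, beside 28.7% of all genes. The WT rhythm passed for 1, beside 16.3%, and the KO rhythm for 10, beside 17.0%. These counts include KO_20h replicate 1, at 632 CPM against a median of 16.3 CPM in KO at 20 h. The part of neutrophils in the Serpinb1a values was not tested. Macrophage and Kupffer cell markers summed to 123 to 1102 CPM in WT (median 259) and 112 to 609 CPM in KO (median 318), with 0 of 8 called and a median log2 difference of 0.04.

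Serpine2 is known from fibroblasts and other stromal cells, so their markers are set beside it. Of 14 stellate cell and fibroblast markers, 13 were negative, beside 6968 of all 13646 genes tested. None was called, beside 1.40% of all genes, and the median was −0.20. Hand2 read −0.52 ± 0.15 (adjusted p = 0.0724), Des −0.34 ± 0.10 (adjusted p = 0.0646) and Ecm1 −0.45 ± 0.21 (adjusted p = 0.260). Des was called in 8 and Hand2 in 6 of the 55 alternatives, at the lowest with adjusted p of 0.0197 and 0.00652. None of the 14 was at 0 in a whole genotype, and they summed to 266 to 919 CPM in WT (median 570) and 254 to 914 CPM in KO (median 499), highest in KO in KO_16h replicate 3. The 6 mesothelial markers had a median of −0.39 with 0 called, and summed to medians of 9.78 CPM in WT and 8.46 CPM in KO. The part of these cells in the Serpine2 difference was not tested.

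For the remaining cell types, 0 markers were called in each list, beside 1.40% of all genes. Among the alternatives, Krt7 of the bile duct passed in 5, Star of the adrenal in 2, Plin4 of adipocytes in 2 and Cd3e of lymphocytes in 1. The medians were −0.24 over 6 bile duct genes, −0.03 over 10 endothelial genes and −0.12 over 10 lymphocyte genes. They were 0.87 over 2 pancreas genes, −0.38 over 3 adrenal genes and 0.01 over 7 hepatocyte genes. The 2 adipocyte genes tested differed in sign. Car3, a carbonic anhydrase that hepatocytes also make, read 0.74 ± 0.29 (adjusted p = 0.194) and was higher in KO at 6 of 6 times. The lipid droplet gene Plin4 read −0.63 ± 0.21 (adjusted p = 0.120) and was lower in KO at 5 of 6. Pancreas markers reached 304 CPM in KO_0h replicate 2 and adrenal markers 155 CPM in WT_0h replicate 3. Without these and KO_16h replicate 2, no call on either member changed.

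The genes most like each member were ranked by Pearson's r of log2 CPM over the 48 libraries, among tested genes averaging 1 CPM or more. Genes with predicted-gene or clone-type names were left out, which left 10925 to rank for each member. These r values share the libraries, the genotype differences and the times of day, and are descriptions. For Serpinb1a the highest were Ncald (0.80), a calcium sensor gene, Zc3hav1 (0.75), an antiviral RNA-binding protein gene, Mccc2 (0.74), of leucine breakdown, the aquaporin gene Aqp8 (0.73) and the tetraspanin gene Cd81 (0.73). The most opposite were the flavin monooxygenase gene Fmo5 (−0.77), the folate carrier gene Slc19a1 (−0.77) and the kinase gene Map3k6 (−0.76). On deviations from group means, which leave out genotype and time, the highest were Fitm1 (0.73), a lipid droplet gene, Hsd3b7 (0.73), of bile acid synthesis, Tlcd2 (0.73), Atp6v0d2 (0.73), a proton pump subunit, and Pet112l (0.73).

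For Serpine2 the highest over the 48 libraries were Pmepa1 (0.72), a brake on TGF-beta signalling, Lmo4 (0.72), the zinc finger gene Sall2 (0.71), Rrm2 (0.70), a subunit of ribonucleotide reductase, and the glutamine carrier gene Slc1a5 (0.68). The most opposite were Usp18 (−0.77), which removes the ubiquitin-like protein ISG15, Scaper (−0.70) and Ccdc17 (−0.68). On deviations from group means they were Zfp821 (0.59), Lmo4 (0.55), Dmrta1 (0.54), Map3k15 (0.53) and Ankrd13a (0.53). Lmo4, a LIM-only transcription cofactor, was in both orders.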

How the data were processed

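Liver poly-A RNA was sequenced on a HiSeq 2000 in 48 libraries, 1 per mouse per the labels' protocols. The authors deposited whole-number counts of reads for each gene, with positions in mm9. Per the submitters' processing notes CASAVA and STAR 2.4.1d were used. The deposited counts carry the words MIN and sense in their name, and the genes have Ensembl identifiers. What these words mean for the assignment of reads to genes and its strand setting is not described in the sources used here. The annotation release and the cause of the nearly equal totals are not given there either. Genotype, time and replicate came from the labels. Albumin (Alb), which the table marks as high and whose values step by a fixed amount, was left out. The table held 0 columns of other samples.

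The analysis used edgeR 4.0.16 under R 4.3.3. Genes passed a minimum count of 10 and a total of 15 over the 12 groups, and TMM scaling was used. A quasi-likelihood fit of 12 group means gave the mean difference, the differences by time, the time effect and the interaction (5 degrees of freedom). A fit with 24 h cosine and sine terms for each genotype gave the rhythm tests (2 degrees of freedom). SEs are the absolute log2 difference over the square root of F. Amplitudes came from log2 CPM with a prior count of 2. Correlations used 100000 permutations within groups, two-sided. The scripts were tested on simulated data.

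The members, gene lists and tests were chosen with earlier results of these data known. Named genes are Arntl, the members, Serpinb1b, Serpinb1c, Serpine3, every other serpin or thrombin and plasminogen gene called, up to 3 of lowest p in lists with none called, and for each member the 5 most alike and 3 most opposite genes. Further genes of a list named beside these were added after their values were seen. A serpin is not reported here and stays out of the serpin counts. Promoter sequences are RefSeq's on GRCm38.p6, with 1 of 2 members matched. Alternatives were DESeq2 1.42.0, median-ratio scaling, other filters, a replicate block, libraries left out in turn, without the 3 libraries that stood apart, and without 16 h.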

Additional observations from a re-analysis of the deposited data

Results flagged for a closer look

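In groups of 4 or 5 mice, the gap between the highest or lowest liver and its nearest neighbour was set against the range of the group, for Serpinb1a and Serpine2 (22 groups). Chance puts about 1 in 20 groups past the 95% critical value of Dixon's test, and 1 was past it. In WT at 4 h, Serpine2 of replicate 2 was 11.2 CPM with the next liver at 3.91 CPM, a gap of 0.845 of the range against a critical value of 0.829. The liver at 419.7 CPM of Serpinb1a in KO at 16 h belongs to a group of 3, which this test does not cover.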

How the results depend on the processing

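The mean difference of Serpinb1a stayed positive (1.32 to 1.87 on the log2 scale) and that of Serpine2 negative (−1.41 to −1.15) under all 55 alternatives run for each. With a replicate block they were 1.48 and −1.29, and it changed no call on a member. Of 23 pairs of WT and KO mice with the same number and time, 14 had deviations correlated above 0.1 over 2000 genes (−0.329 to 0.51). These values alone do not settle whether the numbers pair the mice, and the main fits did not pair them. Leaving out each library in turn, the adjusted p of the Serpinb1a time effect ran from 0.0115 to 0.314, of its KO rhythm from 0.00749 to 0.764, and of the Serpine2 KO rhythm from 0.00932 to 0.0515.

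Counts of genes called moved more. For the mean difference (191 genes), 122 were called with no low-count filter, 303 without the 3 libraries that stood apart, 127 with the replicate block and 349 in DESeq2, and 99 (without KO_16h replicate 3) to 484 (without KO_4h replicate 1) with each library left out. For the interaction (1 gene), 0 were called without the 3 libraries and with the block, 7 in DESeq2, and 0 to 3 with each library left out. At an unadjusted p under 0.05 the interaction called 447 of the 13646 genes tested. That is below the share of 0.05 that would pass with no interaction in any gene. The rhythm difference (1 gene) called 5 in DESeq2 and 1 to 2 with each library left out, and the KO rhythm (2322 genes) 1628 to 3691, the highest without KO_16h replicate 3. Called serpins other than the members (0) numbered 1 without 16 h, 1 in DESeq2 and 0 to 1 with each library left out. The cause was not tested. The low counts of Serpine2, the SEs of 0.52 to 0.73 of the members at single times and the 3 KO mice at 16 h limit what can be read time by time.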
